A study of Salmo salar with 57 samples.

Results

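The genes described here come from a list of the probes that the study called differentially expressed (DE), of which part of the lines was held, and are those placed there under the KEGG pathways peroxisome, fatty acid degradation and valine, leucine and isoleucine degradation. AL3A2, ADH1, GSTK1 and probes also listed under digestion, absorption or bile secretion were left out. Each gene is represented by 1 probe, and 35 of the 14841 probes on the array that are not controls were chosen in this way. According to the study, of several probes for a gene the most variable was kept. Of the 35, 20 are listed under peroxisome, 9 under fatty acid degradation and 14 under branched-chain amino acid degradation, 6 of them under 2 of these pathways and 1 (ECHP) under all 3. All 35 passed the filter on dim spots and were among the 12065 probes tested. Their calls against the fish meal diet decided which of them were listed, so their changes are given below as a description, with no test.

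Peroxisomes are organelles in which oxidases transfer electrons from their substrates directly to oxygen, which yields hydrogen peroxide that catalase then breaks down. They shorten very long, branched and hydroxylated fatty acids, and the shortened chains are finished by β-oxidation in mitochondria. Mitochondria also take apart leucine, isoleucine and valine, by steps that share enzymes with β-oxidation. In mammals the absorbing cells of the gut epithelium carry out much of this work in the intestine.

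Seawater-reared post-smolt Atlantic salmon received 1 of 6 diets for 4 weeks, and RNA from the distal intestine of each fish was hybridized to its own array. The diets were CV (the green alga Chlorella vulgaris) and those with the yeasts CU (Candida utilis), KM (Kluyveromyces marxianus) and SC (Saccharomyces cerevisiae), each given at 200 g per kg together with 200 g soybean meal per kg, then SBM with 200 g soybean meal per kg and no microbial ingredient, and FM, the fish meal control with neither. According to the study, fish meal and crude protein were lower in SBM than in FM and lower again in the microbial diets. The microbial diets also held more added fish oil. The parts of these differences and of the ingredients cannot be told apart. There were 10 fish per diet and 7 in SBM. Soybean meal is known to cause inflammation of the distal intestine in this species, and the design asks whether the microbial ingredients alter that response. The labels give a diet letter, 4 histology scores per fish and no tank, so letters were assigned to diets from the per-fish scores that the study drew and from the group of 7, and the fish were treated as independent although they came from shared tanks. The p-values therefore rest on the spread between fish only. The study left out the fish of an SBM tank whose intestines looked unlike those of the other SBM tanks.

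Between 1264 and 3320 spots per array were too dim or not uniform and became missing values (median 2024), and the array with the most was that of FM fish 3. Markers of absorbing enterocytes had 14 tested probes of 8 out of 12 listed genes, all among the probes that the study had called. Whole tissue was sampled, so fewer cells of a type and less RNA per cell cannot be told apart. Of the 35 members, 32 had no missing spot on any array and none was saturated. Atlantic salmon carries duplicated copies of many genes, and which copy a probe reads was not determined.

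Most members were called below FM in SC, and 16 of 35 in SBM, while fewer than 10 were called below in each of KM, CU and CV. A call of DE required an adjusted p under 0.05 (limma, nested F over the 5 diets, Benjamini-Hochberg) and a log2 fold change (log2 FC, diet minus FM) of 0.4 or more in either direction. In SC, 24 of 35 members were called below FM (9.28% of all probes tested) and 3 above (13.2%). In SBM, 16 were called below (8.62%) and 7 above (13.7%). In KM the counts were 9 below (1.86%) and 3 above (9.3%), in CU 8 below (3.34%) and 0 above (2.02%), and in CV 1 below (0.605%) and 4 above (9.99%). The median log2 FC of the 35 members was −0.66 for SC fish, −0.44 for SBM fish, −0.14 for KM fish, −0.16 for CU fish and 0.02 for CV fish. Over all 12065 probes it was 0.06, 0.09, 0.14, −0.01 and 0.17 in the same order of diets. The values over all probes in KM and CV depended on the processing. They were 0.01 and 0.01 with no filter on dim spots, and 0.04 and 0.05 with the authors' normalized values. The paper reported fewer DE probes in KM and in CV than were called here. All 5 comparisons share the same 10 FM fish. Since the listing used these contrasts, nothing is read from the distance between the members' counts and the shares of all probes.

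**Figure D1:**
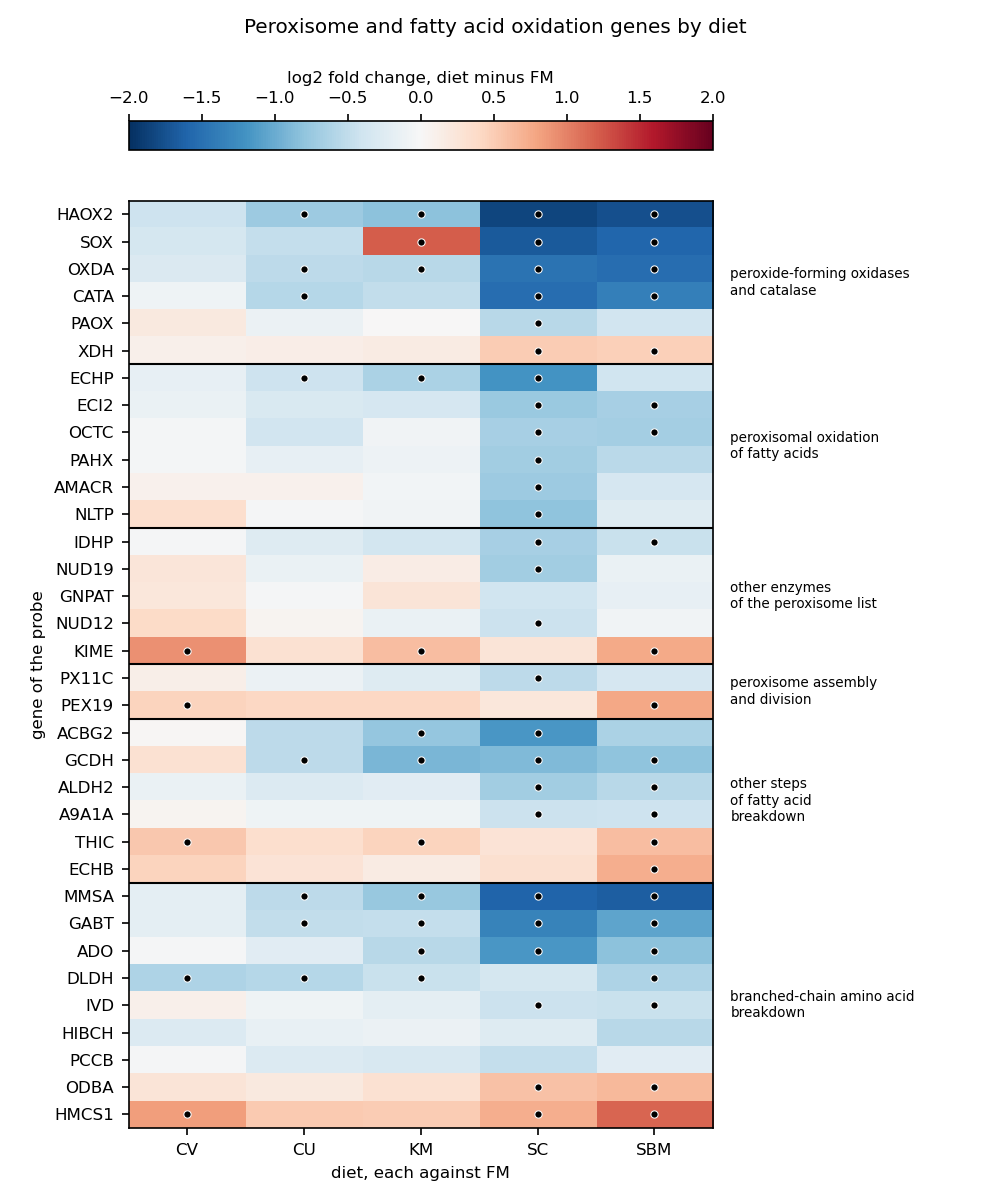
Log2 fold change of 34 of the members (rows, grouped by role) in each of the 5 diets against FM (columns), in colour between −2 and 2, with a dot where the member was called DE. The blue block of falls is deepest in SC and SBM, where HAOX2 reaches −1.84 and −1.76, while HMCS1, KIME, THIC, PEX19, ECHB, ODBA and XDH are above FM in all 5 diets.

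Of the 35 members, 16 had a log2 FC below 0 in all 5 diets and 7 had one above 0 in all 5. In at least 1 diet 25 members were called below FM and 8 above, SOX being called in both directions, and 3 were called in none (HIBCH, PCCB and GNPAT). Of all probes tested, 34.7% were called in at least 1 diet. Calls by the study were the condition for listing, so these counts only describe the members. HIBCH, at −0.55 in SBM, and PCCB, at −0.47 in SC, were past the limit on the log2 FC and missed the F-test, and GNPAT, at −0.40 in SC, lay just outside that limit. Just inside were IVD, A9A1A and NUD12, each at −0.43 in SC.

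The arrays were scanned on 2 days, each with fish of every diet. With the fish of a single day the median log2 FC of the members was −0.51 and −0.61 in SC, −0.51 and −0.40 in SBM and −0.30 and −0.05 in KM. In CV it was −0.07 and 0.15. With the fish of 1 day alone, 13 and 18 members were called below FM in SC and 15 and 9 in SBM. The shares of all probes given above belong to the fit of all arrays. None is given for these smaller fits, so the counts only describe the members. HAOX2, OXDA, CATA, MMSA and GABT were called below FM in SC and SBM on both days.

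Taken as a mean over the role groups made here, the fall in SC and SBM was deepest for a group of catalase and oxidases that form hydrogen peroxide. MMSA of another group fell further than OXDA and CATA. The group does not hold every oxidase among the members, and ADO (−1.17 in SC, −0.82 in SBM) was placed under branched-chain amino acid breakdown. Of the 6 members in the group of catalase and oxidases, 5 were called below FM in SC and 4 in SBM, and XDH was called above FM in both. The mean of the 6 per fish, relative to the FM mean, was −1.10 ± 0.23 in SC (SD, n = 10) and −1.03 ± 0.31 in SBM (SD, n = 7). For KM fish it was −0.08 ± 0.49, for CU fish −0.38 ± 0.34 and for CV fish −0.14 ± 0.34, and the FM fish had an SD of 0.21 (n = 10 each). The KM mean includes SOX, whose log2 FC of 1.21 rested on few fish, and KM fish 2 reached 1.03. In KM the others stood at −0.82 (HAOX2), −0.56 (OXDA), −0.50 (CATA), 0.01 (PAOX) and 0.17 (XDH). Every SC and SBM fish lay below every FM fish on the mean of the 6, the highest being −0.59 in SC and −0.48 in SBM against a lowest of −0.32 in FM.

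HAOX2 (Ssa_GRASP209734193), which oxidizes 2-hydroxy acids, had a normalised log2 signal between 8.04 and 9.67 in SC fish, with a median of 9.14, and between 8.78 and 9.52 in SBM fish, with a median of 9.08, against 10.47 to 11.21 with a median of 10.90 in FM fish. Its log2 FC was −1.84 (SE 0.18) in SC fish and −1.76 (SE 0.20) in SBM fish, which left 27.9% and 29.5% of the FM signal. No SC or SBM fish reached the lowest FM fish, whereas in CU and KM 9 of 10 fish lay below it and 1 fish of each diet was within the FM range. HAOX2 was called in these diets too, at −0.73 (SE 0.18) in CU and −0.82 (SE 0.18) in KM, and stood at −0.41 (SE 0.18) in CV without a call.

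OXDA (D-amino-acid oxidase, Ssa_GRASP223646947), which deaminates D-amino acids, ran from 11.14 to 11.87 (median 11.41) in SC and from 11.13 to 11.73 (median 11.46) in SBM, against 12.50 to 13.24 (median 12.92) in FM. The groups did not overlap, and the log2 FC was −1.48 (SE 0.15) in SC fish and −1.52 (SE 0.17) in SBM fish. It fell less in CU, by 0.52, and in KM, by 0.56 on the log2 scale (SE 0.15 each).

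CATA (catalase, Ssa_S35708455), which removes the peroxide, ran from 5.18 to 6.03 (median 5.83) in SC and from 5.25 to 6.46 (median 5.88) in SBM, against 6.75 to 7.71 (median 7.19) in FM. Again no SC or SBM fish reached the lowest FM fish. CATA fell in SC at −1.52 (SE 0.21), in SBM at −1.37 (SE 0.23) and in CU at −0.57 (SE 0.21). In KM it was −0.50 (SE 0.21) and not called, and without KM fish 2 (left out after seeing the data), whose value of 7.91 was the highest of its diet, it was −0.63 and called.

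SOX (peroxisomal sarcosine oxidase, Ssa_CA040320), which oxidizes sarcosine and pipecolic acid, spread most of the members. It ran from 3.33 to 6.84 (median 4.21) in SC and from 3.52 to 6.86 (median 3.97) in SBM, against 4.15 to 8.18 (median 6.09) in FM, so the groups overlapped. The log2 FC was −1.68 (SE 0.58) in SC fish and −1.59 (SE 0.64) in SBM fish. In KM the sign was the other way, at 1.21 (SE 0.58), and the call above FM rested on few fish. Of the 10 KM fish, 3 exceeded the highest FM fish, up to 11.04 in fish 2, while 3 lay below the FM mean. Without KM fish 2 the log2 FC was 0.80 and not called, and with each contrast adjusted alone the 1.21 was not called. On 6 of the 57 arrays the SOX spot was missing and its value imputed, 3 of them in SC and 1 each in CU, SBM and FM.

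The other oxidases moved less. PAOX (Omy_BX296647), which oxidizes acetylated polyamines, fell in SC, with a log2 FC of −0.55 (SE 0.12), and had −0.39 (SE 0.13) in SBM without a call. XDH (xanthine dehydrogenase/oxidase, Ssa_S35676209), a purine-degrading enzyme of the cytosol that KEGG lists under peroxisome, rose by 0.50 (SE 0.09) in SC fish and 0.48 (SE 0.10) in SBM fish. Its signal was 14.68 to 15.08 (median 14.94) in SC and 14.68 to 15.19 (median 14.90) in SBM, against 14.15 to 14.60 (median 14.43) in FM, without overlap.

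**Figure D2:**
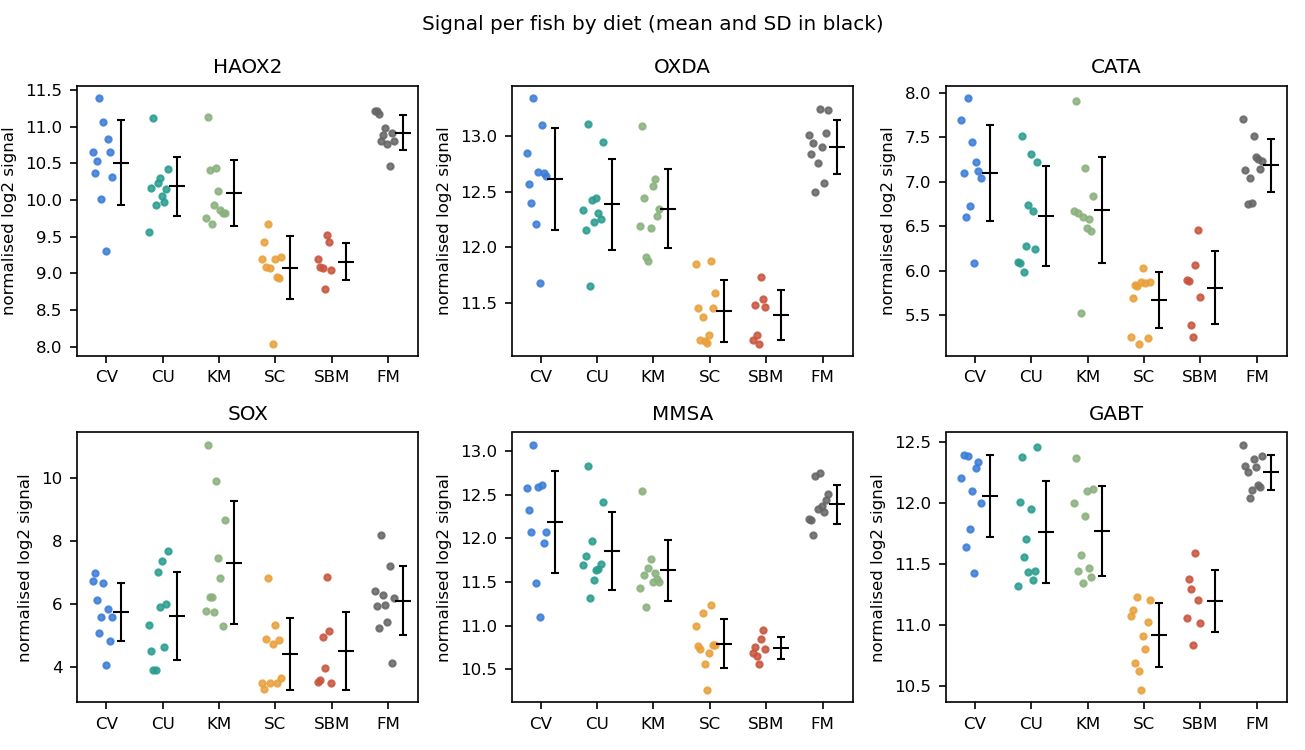
Normalised log2 signal of HAOX2, OXDA, CATA, SOX, MMSA and GABT in each fish (points) by diet, with the mean and SD in black. SC and SBM fish lie below all FM fish for all but SOX, where KM fish reach 11.04 and the FM fish run from 4.15 to 8.18.

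The 7 enzymes of peroxisomal fatty acid oxidation were all called below FM in SC, and 3 of them in SBM. With SC set directly against SBM, ECHP alone of the 7 was called, at −0.80 (SE 0.15). In KM and CU 1 of the 7 was called below FM, ECHP in both, and in CV none. The mean of the 7 per fish was −0.78 ± 0.29 in SC (SD, n = 10), −0.51 ± 0.19 in SBM (SD, n = 7), −0.20 ± 0.22 for KM fish, −0.21 ± 0.17 for CU fish and −0.02 ± 0.21 for CV fish (SD, n = 10 each).

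ECHP (peroxisomal bifunctional enzyme, Ssa_AM402475), which carries out the hydratase and dehydrogenase steps of the peroxisomal cycle, was the member that differed most between SC and SBM. It ran from 7.42 to 8.40 (median 8.10) in SC, below every fish of SBM, with 8.63 to 9.10 (median 8.79), and of FM, with 8.64 to 9.81 (median 9.24). The log2 FC against FM was −1.20 (SE 0.13) in SC, −0.63 (SE 0.13) in KM, −0.42 (SE 0.13) in CU and −0.40 (SE 0.15) in SBM, the last without a call. A 2nd ECHP probe (Ssa_GRASP209155295) gave −0.74 (SE 0.10) in SC fish and −0.48 (SE 0.11) in SBM fish, both called, so the probes differed in how far SC and SBM lay apart. By the study's rule the listed probe of a gene was its most variable.

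ECI2 (Ssa_S48402755), an isomerase that moves double bonds into place, had −0.74 (SE 0.12) in SC fish and −0.66 (SE 0.13) in SBM fish. Its signal was 7.39 to 8.21 (median 7.86) in SC and 7.64 to 8.35 (median 7.92) in SBM, against 8.13 to 9.08 (median 8.66) in FM. OCTC (Ssa_DW564434), which hands shortened chains to carnitine for transfer to mitochondria, had −0.66 (SE 0.17) in SC fish and −0.68 (SE 0.19) in SBM fish. For ECI2, 8 of 10 SC fish and 6 of 7 SBM fish lay below every FM fish. For OCTC only 2 of 10 and 2 of 7 did, and the others stayed within the FM range.

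NLTP (Ssa_S18885788, a lipid-transfer protein whose long form is the thiolase for branched chains) had −0.80 (SE 0.19) in SC fish and −0.26 (SE 0.21) in SBM fish. AMACR (Ssa_GRASP221221439), the racemase that prepares branched fatty acids, had −0.72 (SE 0.17) in SC fish and −0.34 (SE 0.18) in SBM fish. PAHX (phytanoyl-CoA dioxygenase, Ssa_S35592754), which starts α-oxidation, had −0.70 (SE 0.20) in SC fish and −0.54 (SE 0.22) in SBM fish, and a 2nd probe of it (Ssa_TC83674) had −0.57 (SE 0.19) and −0.49 (SE 0.20). The SC falls of these genes were called and the SBM values were not.

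**Figure D3:**
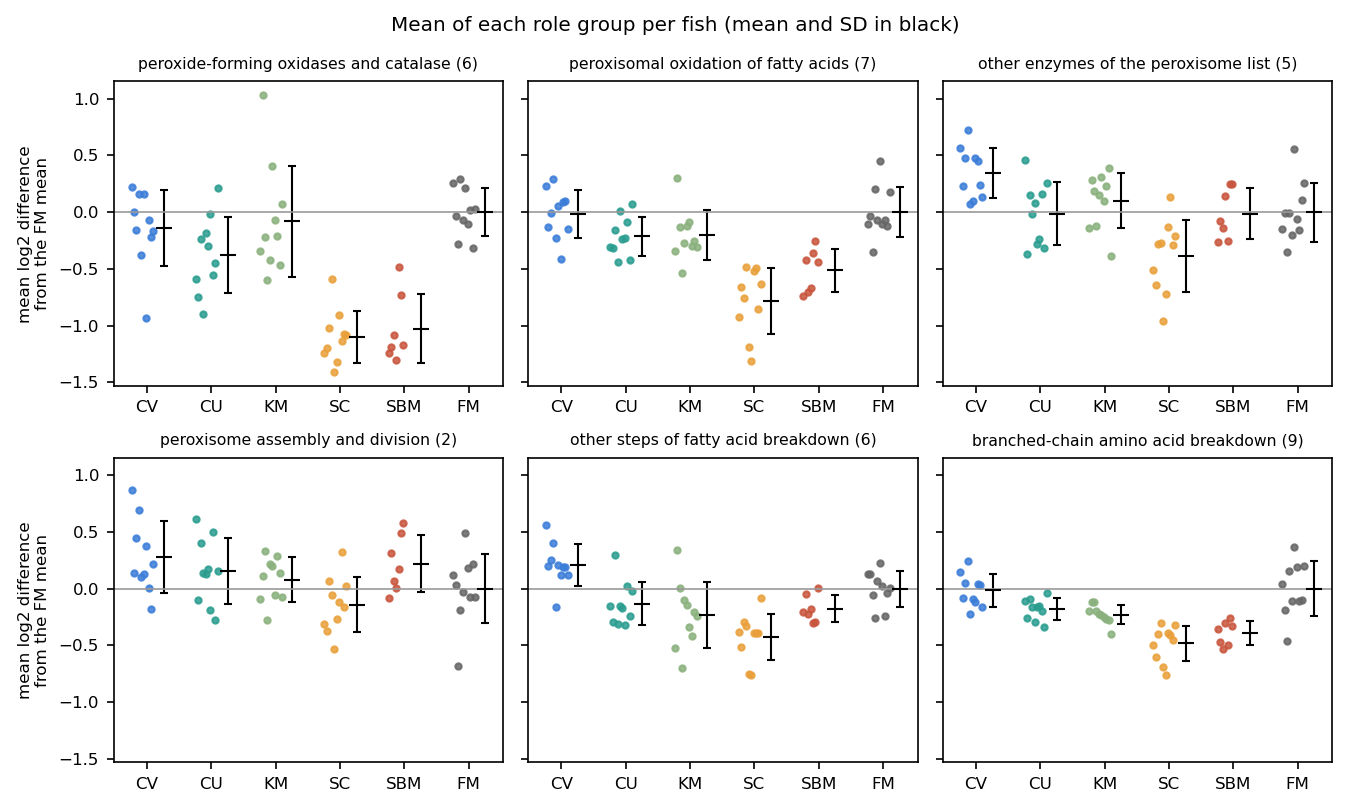
Mean log2 difference from the FM mean over the members of each role group (number of members in brackets) for each fish (points), by diet, with the mean and SD in black. The peroxide-forming oxidases and catalase average −1.10 in SC and −1.03 in SBM, and the peroxisomal fatty acid enzymes −0.78 and −0.51. In KM the oxidase mean includes SOX at 1.21.

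The remaining peroxisome genes did not move as a group. PX11C (Ssa_S32006874), of the PEX11 family that acts in peroxisome division, fell in SC at −0.52 (SE 0.13) and had −0.33 (SE 0.15) in SBM. PEX19 (Ssa_S30270510), which brings membrane proteins to the organelle, went the other way. Its signal was 6.77 to 7.60 (median 6.99) in SBM and 6.20 to 7.25 (median 6.82) in CV, against 5.28 to 6.97 (median 6.47) in FM, with 4 of 7 SBM fish and 4 of 10 CV fish above every FM fish. PEX19 was called above FM in SBM at 0.77 (SE 0.16) and in CV at 0.44 (SE 0.15), and FM fish 3 stood apart at 5.28. Without that fish PEX19 had 0.65 in SBM, still called, and 0.32 in CV, not called, and with arrays scaled to their 75th percentile 0.22 in CV, not called.

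IDHP (Ssa_CV428794), a mitochondrial isocitrate dehydrogenase that supplies NADPH, had −0.66 (SE 0.11) in SC, where all 10 fish (12.20 to 12.68) lay below all FM fish (12.68 to 13.46), the nearest being equal after rounding. In SBM it had −0.45 (SE 0.12), also called. NUD12 (Ssa_S32010412) and NUD19 (Ssa_DW563873), hydrolases of NADH and of coenzyme A compounds, were called below FM in SC alone among the diets, at −0.43 (SE 0.15) and −0.70 (SE 0.23). GNPAT (Ssa_S31963128), which starts the synthesis of ether lipids, was called in no diet.

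Among the other genes of fatty acid degradation, ACBG2 (Ssa_S35688234), which activates long fatty acids by joining them to coenzyme A, ran from 9.81 to 11.43 (median 10.75) in SC and from 10.85 to 11.53 (median 11.25) in SBM, against 11.41 to 12.25 (median 11.83) in FM. ACBG2 fell in SC at −1.16 (SE 0.26) and in KM at −0.78 (SE 0.26), and had −0.63 (SE 0.28) in SBM, not called. KM fish spread from 9.45 to 12.75, wider than the FM fish on both sides.

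GCDH (glutaryl-CoA dehydrogenase, Ssa_TC74304), a step of lysine and tryptophan breakdown, was lower in 4 of the diets and not in CV. It had −0.89 (SE 0.21) in SC fish, −0.81 (SE 0.23) in SBM fish, −0.91 (SE 0.21) in KM and −0.53 (SE 0.21) in CU, all called, and 0.31 (SE 0.21) in CV. CV fish ran from 9.39 to 11.22 (median 10.82) against 9.87 to 10.75 (median 10.31) in FM, with 5 of 10 above every FM fish. ALDH2 (Ssa_GRASP209154763) and A9A1A (Ssa_GRASP209154549), aldehyde dehydrogenases shared by several pathways, fell in SC by 0.69 (SE 0.09) and 0.43 (SE 0.08) and in SBM by 0.55 (SE 0.10) and 0.42 (SE 0.08) on the log2 scale. For ALDH2 no SC or SBM fish reached the lowest FM fish.

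Of the 9 members grouped under branched-chain amino acid degradation, 4 were called below FM in SC and 5 in SBM, and 2 were called above FM in each. Those above were ODBA and HMCS1, of which HMCS1 belongs to sterol synthesis, as described below. MMSA (methylmalonate-semialdehyde dehydrogenase, Ssa_S31997908), near the end of valine breakdown, ran from 10.26 to 11.23 (median 10.77) in SC and from 10.56 to 10.95 (median 10.73) in SBM, against 12.04 to 12.75 (median 12.35) in FM. The log2 FC was −1.60 (SE 0.17) in SC fish and −1.65 (SE 0.18) in SBM fish, which left 33.1% and 31.9% of the FM signal. It was −0.76 (SE 0.17) in KM and −0.53 (SE 0.17) in CU, where 9 and 8 of 10 fish lay below every FM fish, and −0.20 (SE 0.17) in CV, not called.

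GABT (4-aminobutyrate aminotransferase, Ssa_GRASP209154559), which also acts on the valine side product β-aminoisobutyrate, ran from 10.47 to 11.23 (median 10.97) in SC and from 10.84 to 11.59 (median 11.21) in SBM, against 12.04 to 12.48 (median 12.28) in FM, without overlap. Its log2 FC was −1.33 (SE 0.14) in SC fish and −1.05 (SE 0.15) in SBM fish, and −0.48 in KM and −0.49 in CU (SE 0.14 each). ADO (aldehyde oxidase, Ssa_S32001552) had −1.17 (SE 0.18) in SC fish, −0.82 (SE 0.20) in SBM fish and −0.55 (SE 0.18) in KM. Of the fish, 9 of 10 in SC, 4 of 7 in SBM and 5 of 10 in KM lay below every FM fish.

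IVD (Ssa_GRASP209154529), the leucine-side acyl-CoA dehydrogenase, fell by 0.43 (SE 0.10) in SC and by 0.44 (SE 0.11) in SBM on the log2 scale. HIBCH (Ssa_GRASP223648843) on the valine side and PCCB (Ssa_S30280966), which carboxylates propionyl-CoA, were called in no diet. DLDH (Ssa_S31993460), the dihydrolipoyl dehydrogenase shared by several mitochondrial complexes, had a pattern unlike the rest, with −0.61 (SE 0.15) in CV, −0.57 (SE 0.15) in CU, −0.45 (SE 0.15) in KM and −0.61 (SE 0.17) in SBM, all called, and −0.35 (SE 0.15) in SC, not called. A 2nd DLDH probe (Ssa_GRASP209154113) gave values of the opposite sign in every diet, from 0.27 (SE 0.08) in SC to 0.43 (SE 0.09) in SBM, which in SBM was called above FM. The DLDH values are therefore uncertain as to the gene.

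Of the members above FM, 3 belong to the synthesis of sterols rather than to the breakdown of fat. HMCS1 (Ssa_AM402497), the cytosolic HMG-CoA synthase, THIC (Ssa_GRASP209153949), the cytosolic thiolase that makes its substrate, and KIME (Ssa_S31979800), mevalonate kinase, lie on the mevalonate route and are listed under the degradation and peroxisome pathways through shared reactions or location. HMCS1 was called above FM in SBM at 1.16 (SE 0.24), in CV at 0.83 (SE 0.22) and in SC at 0.72 (SE 0.22). THIC had 0.61 (SE 0.14) in SBM, 0.54 (SE 0.13) in CV and 0.45 (SE 0.13) in KM, and KIME 0.76 (SE 0.23), 0.91 (SE 0.21) and 0.61 (SE 0.21) in these diets, all called. With arrays scaled to their 75th percentile, KIME had 0.41 in SBM and 0.28 in KM, neither called.

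HMCS1 ran from 9.24 to 10.33 (median 9.56) in SBM, from 8.58 to 10.16 (median 9.37) in CV and from 8.34 to 10.08 (median 9.42) in SC, against 7.35 to 9.40 (median 8.65) in FM. The groups overlapped, with 5 of 7 SBM fish and 5 of 10 fish in each of CV and SC above every FM fish. KIME ran from 3.83 to 5.29 (median 4.82) in SBM and from 4.55 to 5.50 (median 4.76) in CV, against 3.46 to 5.41 (median 3.94) in FM, where fish 6 alone stood above 4.27. KIME was the dimmest member in FM, with a mean of 4.03, and had 2 imputed values, 1 in SC and 1 in FM. THIC ran from 10.56 to 11.15 (median 10.75) in SBM and from 10.23 to 10.98 (median 10.73) in CV, against 9.26 to 10.83 (median 10.22) in FM. FM fish 3, with the most missing spots, had the lowest FM value of HMCS1, PEX19 and ODBA, and without it the call of HMCS1 in SC (0.58) and that of KIME in KM (0.54) were lost. The call of KIME in KM was also lost without KM fish 2, which left 1 of the 3 members called above FM in KM.

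ECHB (β subunit of the mitochondrial trifunctional enzyme, Ssa_S48402845), the thiolase of long-chain β-oxidation, was called above FM in SBM alone, at 0.73 (SE 0.19). Its signal was 8.26 to 9.11 (median 8.50) in SBM against 7.27 to 8.18 (median 7.92) in FM, without overlap. ODBA (Ssa_S29048789), the subunit of the dehydrogenase that commits branched-chain keto acids to breakdown, rose by 0.58 (SE 0.11) in SC fish and 0.65 (SE 0.12) in SBM fish. It ran from 13.51 to 14.31 (median 13.93) in SC and from 13.59 to 14.19 (median 14.07) in SBM, against 12.74 to 13.62 (median 13.40) in FM, and 9 of 10 and 6 of 7 fish exceeded every FM fish.

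**Figure D4:**
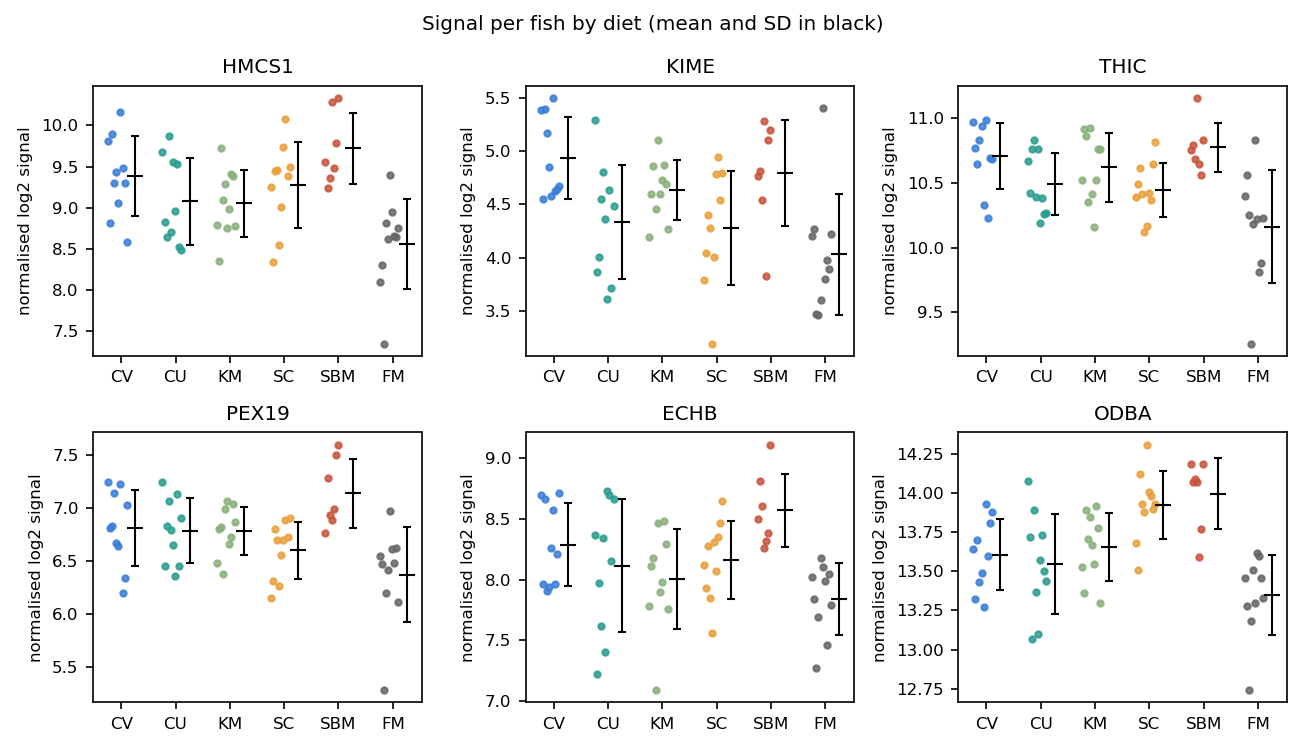
Normalised log2 signal of HMCS1, KIME, THIC, PEX19, ECHB and ODBA in each fish (points) by diet, with the mean and SD in black. For ECHB the SBM fish (8.26 to 9.11) lie above all FM fish (7.27 to 8.18), while the other genes overlap with FM in every diet.

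In all, every fish lay below every FM fish for 8 members in SC (2.57% of all probes tested) and for 6 in SBM (2.86%), and above every FM fish for 1 in SC (2.09%) and 2 in SBM (5.06%). In CV, CU and KM no member separated from FM in this way, in either direction. The corresponding shares of all probes below FM were 0% in CV, 0.0414% in CU and 0.0995% in KM, and above FM 0.191%, 0.0829% and 0.448%.

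The microbial diets were also set directly against SBM, and no test compares them with each other. With limma's moderated test and Benjamini-Hochberg adjustment per contrast over all probes, and the same limit on the log2 FC, 17 members were called above SBM in CV (8.01% of all probes) and 0 below (2.74%). In the same way 10 members were called above SBM in KM (6.51%) and 1 below (2.2%), and 7 above in CU (2.5%) and 1 below (4.77%). In SC 0 were called above (0.149%) and 1 below (0.157%). These contrasts share the SBM fish with each other and with the comparison that chose the members, so the counts describe the members and are no test of them. The median log2 FC against SBM was 0.45 in CV, 0.27 in KM, 0.27 in CU and −0.16 in SC, with 0.08, 0.04, −0.10 and −0.04 over all probes.

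In CV, MMSA was 1.44 (SE 0.18), HAOX2 1.35 (SE 0.20), CATA 1.29 (SE 0.23), OXDA 1.23 (SE 0.17) and GCDH 1.12 (SE 0.23) above SBM on the log2 scale, all called. The largest called difference in KM was that of SOX, at 2.80 (SE 0.64), followed by OXDA at 0.96 and HAOX2 at 0.94. SOX was dim in SBM, with a median of 3.97 and 1 imputed value, and KM fish spread from 5.31 to 11.04 (median 6.52). Among the called members of CU, MMSA stood at 1.11, HAOX2 at 1.03 and OXDA at 1.00. Below SBM were ODBA in CU (−0.45, SE 0.12) and ECHB in KM (−0.57, SE 0.19). In SC it was ECHP, at −0.80 (SE 0.15), while MMSA (0.05), HAOX2 (−0.08), OXDA (0.04) and CATA (−0.14) were not called. HMCS1, THIC, KIME and PEX19 were called against SBM in none of the 4 diets.

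Of a wider list of 139 genes of peroxisomes, fatty acid and branched-chain amino acid oxidation and PPAR signalling, 44 were paired with a probe in the tables held, 35 of them the members. Those tables hold names only for probes that the study had called, so the counts for the other 9 genes cannot be set against the array. In SC 8 of the 9 were called below FM and 1 above, in SBM 6 and 1, in KM 5 and 1, in CU 3 and 0 and in CV 1 and 1. The list's median log2 FC outside the members was −0.60 for SC fish, −0.45 for SBM fish, −0.44 for KM fish, −0.25 for CU fish and −0.06 for CV fish. For the same reason these medians cannot be set against those of all probes.

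ETFA (Ssa_S35559150), the electron transfer flavoprotein subunit that takes electrons from acyl-CoA dehydrogenases, fell most of the 9 and in all 5 diets, with −2.24 (SE 0.29) in SC fish, −2.14 (SE 0.32) in SBM fish, −1.55 (SE 0.29) in KM, −1.59 (SE 0.29) in CU and −1.09 (SE 0.29) in CV. It ran from 6.06 to 8.58 in SC and from 6.99 to 8.17 in SBM, against 8.57 to 11.08 in FM. Its partner ETFB (Ssa_TC108619) was below FM in SC at −0.60 (SE 0.19) and in KM at −0.63 (SE 0.19), and had −0.35 (SE 0.20) in SBM.

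PPARG (Ssa_S18892423), a nuclear receptor for fatty acids, fell by 1.42 (SE 0.14) in SC and by 1.43 (SE 0.15) in SBM on the log2 scale, and its SC fish (10.72 to 11.75) and SBM fish (11.10 to 11.62) lay below all FM fish (12.25 to 13.07). The carnitine transporter S22A5 (Ssa_S30284157) had −1.41 (SE 0.19) in SC fish and −1.15 (SE 0.21) in SBM fish. ANGL4 (Ssa_GRASP209153907), a lipase inhibitor that PPARs induce in mammals, had −0.69 (SE 0.11) and −0.85 (SE 0.12). PLIN2 (Ssa_TC85658), which coats lipid droplets, was the one called above FM, with 1.05 (SE 0.23) in SC fish, 1.3 (SE 0.25) in SBM fish, 0.62 in KM and 0.66 in CV (SE 0.23 each).

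Markers of absorbing enterocytes fell with the members in SC and SBM. In KM and CU, where 9 and 8 members were called below FM, few or none of these markers were called. A missing call does not show an unchanged signal. The median marker shift per fish was −0.45 in KM (−0.78 to 0.99) and −0.19 in CU (−0.75 to 0.40), against −0.07 in FM (−0.38 to 0.53). Of 14 probes, 12 were called below FM in SC, 9 in SBM, 1 in KM and none in CU or CV, and 1 was called above FM, in KM. Every cell type marker given here was paired only with probes that the study had called. Their counts and mean shifts therefore cannot be set against all probes. Their mean per fish relative to FM was −1.17 ± 0.35 in SC (SD, n = 10), −1.0 ± 0.35 in SBM (SD, n = 7), −0.19 ± 0.57 for KM fish, −0.18 ± 0.36 for CU fish and −0.11 ± 0.38 for CV fish (SD, n = 10 each). The log2 of their summed signal was 14.71 to 17.02 for SC fish, 15.46 to 17.55 for SBM fish, 16.43 to 19.25 for KM fish, 16.62 to 18.52 for CU fish and 16.30 to 18.19 for CV fish, against 17.43 to 18.31 for FM fish. The part of these cells in the members' values was not tested. Smooth muscle markers (3 probes of 2 genes) were called above FM for 3 in SC, 2 in KM, 1 in CV and 0 in CU and SBM, with mean shifts of 0.82, 0.75, 0.56, 0.10 and 0.12. Their part was not tested either. Leukocyte markers (4 probes of 4 out of 18 genes), of which 1 was called below FM in SC and 3 in SBM and 1 above in each, had mean shifts of −0.18 in both diets, and their part was not tested. Of the markers of dividing cells (3 probes of 2 genes), both CCNB1 probes were called above FM in SC (0.70 and 0.76) and in SBM (0.76 and 0.85), while TOP2A was called below FM in SC (−0.42) and had −0.28 in SBM. Their part was not tested.

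The histology scores, which the choice of members did not use, allowed a test of whether members vary with the score among fish of the same diet. That choice was not blind to the spread between fish of a diet, since the study kept the most variable probe of a gene. The sum of the 4 scores ran from 1.5 to 8 for SC fish, 6 to 8 for SBM fish, 3 to 7 for KM fish, 0 to 6 for CU fish and 0 to 7 for CV fish, and was 0 in every FM fish, so the FM fish add nothing to the slope. The slope was fitted with limma over all 57 arrays with diet as a covariate. It does not depend on which letter is which diet. None of the 35 members and 0 of 12065 probes (0%) passed an adjusted p of 0.05, the smallest being 0.0774 among the members and 0.0613 over all probes.

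At an unadjusted p under 0.05, 7 members had a negative slope (4.23% of all probes) and 2 a positive one (13.2%). Of the 35 slopes 26 were negative, with a median of −0.025 log2 per score unit, against 4534 of the 12065 with a median of 0.011. The 7 were ALDH2, IVD, OXDA, HAOX2, MMSA, GABT and CATA. HAOX2 had a slope of −0.098 (SE 0.029) per unit of the score (adjusted p = 0.0913), OXDA −0.085 (SE 0.024, adjusted p = 0.0841) and ALDH2 −0.055 (SE 0.014, adjusted p = 0.0774), by limma with Benjamini-Hochberg adjustment. ODBA and HMCS1 had positive slopes of 0.056 (SE 0.018) and 0.075 (SE 0.036), with adjusted p of 0.105 and 0.271. ADO, with −1.17 in SC, had a slope of 0.007 (SE 0.032).

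The number of slopes at an unadjusted p under 0.05 changed with the fish used. Without CV fish 7, whose score of 7 stood apart from the 0 to 1 of the other CV fish, 3 members had a negative slope at an unadjusted p under 0.05 and the smallest adjusted p was 0.279, while 24 of the 35 slopes were negative with a median of −0.018. With the fish of scan day 1 alone, 11 members had such a slope and the smallest adjusted p was 0.0737 (limma). With those of scan day 2 alone the values were 3 and 0.999, and with the CU, KM and SC fish alone 3 and 0.508 (limma). Without KM fish 2 they were 9 and 0.0505 (limma). Each of the 4 scores was also used alone in place of the sum. With the lamina propria score, 2 members (GABT and ALDH2) and 360 of the 12065 probes (2.98%) passed an adjusted p of 0.05 in limma, and 19 of the 35 slopes were negative. With the others no member passed, the smallest adjusted p from limma being 0.268 for the epithelium, 0.0878 for atrophy and 0.641 for oedema.

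**Figure D5:**
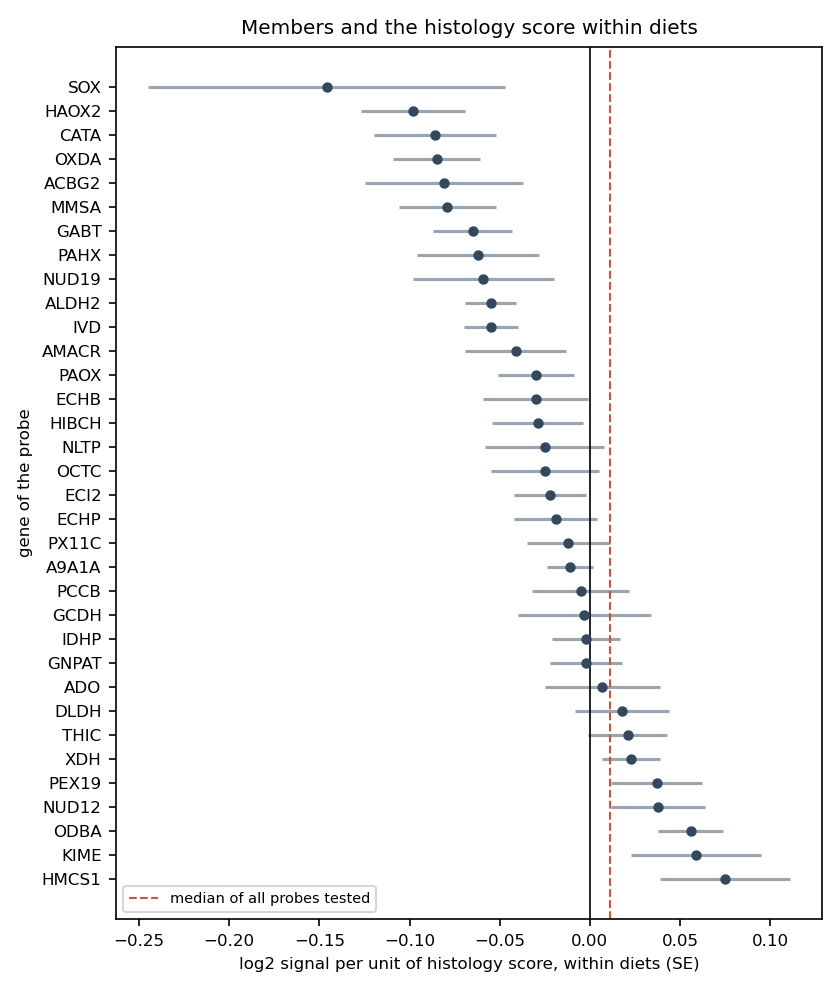
Slope of the log2 signal per unit of the histology score within diets for 34 of the members (points, with SE), with the median of all probes tested as a dashed line at 0.011. SOX has the steepest slope and the widest error, and HAOX2, CATA and OXDA lie at −0.098, −0.086 and −0.085.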

How the data were processed

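The authors deposited one-colour Agilent scanner files for 57 arrays, whose spot intensity values are background-subtracted and not normalized between arrays, with spot flags, and a table of log2 values normalized by the authors, used as an alternative. The submitters' processing notes name Agilent Feature Extraction and limma. After the study's methods, 536 control spots of 15377 were left out and spots whose flags marked them as uneven or too close to background became missing values. The rest were log2 transformed after quantile normalization. Probes missing on over 15% of arrays were dropped, and 4245 values (0.617%) were imputed from the 10 nearest probes. limma 3.58.1 in R 4.3.3 was fitted to all 57 arrays with the thresholds given above, and the nested F-test can call a contrast which a test of it alone would not. The number of arrays limits the precision. Scripts were tested on simulated data.

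The authors' table has column medians between 8.12 and 8.32 and a rank correlation of at least 0.992 with the scanner values of the same array, so its log2 scale and direction were settled and genes were not centred. Normexp used the median spot signal with an offset of 50, since the mean signal was not used here. The other alternatives changed the scaling, filters, limit, model, block, scan day or score, and 3 that left out 1 array each (FM fish 3, CV fish 7, KM fish 2) were chosen after seeing the data.

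The members and gene lists were chosen with earlier results of these data known. By rule, values per fish are given for the 12 members with the largest mean change over SBM and SC, the 3 with the largest rise, every member called in CV or CU and any past the histology test, and of the wider list the 6 with the largest called change. Other members with values per fish were chosen after their values were seen. Probe names come from the study's tables of called probes, which, like the list behind the members, were held in part, and 25 of the 35 members match a RefSeq symbol. Sequences were not used here. For 1 member the values are not reported here, while counts and group means include it.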

Additional observations from a re-analysis of the deposited data

Results flagged for a closer look

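In 108 groups (the 18 members named by rule, in 6 diets) 10 had a fish whose gap to its nearest neighbour was large for the range of its group, where chance gives about 1 in 20. KM fish 2 was the highest of its diet for MMSA (12.54) and HAOX2 (11.13), and KM fish 4 the lowest for ECHB (7.09) and ECI2 (7.64). FM fish 3, whose array had the most missing spots, was the lowest FM fish for ODBA (12.74) and PEX19 (5.28). FM fish 4 was highest for DLDH (15.21) and FM fish 6 for KIME (5.41). CU fish 9 was highest for ADO (6.96), and SC fish 6 lowest for HAOX2 (8.04).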

How the results depend on the processing

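HAOX2, OXDA, CATA, MMSA and GABT were called below FM in SC and SBM with the fish of each scan day alone. The members were listed from calls on these same fish, so this only describes them. The 54 named log2 FC that were called had 972 values under the alternatives, of which 149 were no longer called and 0 had another sign. The 36 that were not called also had a value under each of several alternatives. Of all those values together 35 passed, which is not 35 of the 36. Counts of members called and medians came out within the limits used in 293 of the values under alternatives and moved in 56, as follows, and the cause was not tested. With a limit of 1 on the log2 FC, the members called below FM were 9 in SC, 6 in SBM and 0 in KM, CU and CV, those above were 1 in SBM, 1 in KM and 0 in SC and CV, and those called against SBM were 5 for CV, 3 for CU, 1 for KM and 0 for SC. With no limit, 9 were called above FM in CV. On scan day 1 alone, 13 were called below FM in SC, 2 in CU and 0 in CV, and 2 above in SBM, 1 in SC, 1 in CV and 0 in KM, with a median of −0.30 in KM, and against SBM 3 in CV, 2 in CU and 0 in KM and SC. On scan day 2 alone, 9 were below FM in SBM, 1 in KM and 0 in CU and CV, 2 above in SBM, 2 in CV, 1 in SC and 1 in CU, and against SBM 7 in CV and 0 in KM, CU and SC. With only FM or SBM and the diet in the model, 1 was below FM in CU, 1 above in KM and 5 called in CU against SBM. After normexp the SC median was −0.40, with 1 above FM in KM, 2 in CV and 5 called in CU against SBM. After each contrast was centred on its median over all probes, 1 was above FM in KM, 2 in CV and 3 below in CV. With no filter on dim spots, and likewise in the authors' table, 1 was above FM in KM and 1 in CU. With the slide as a random block 1 was above FM in CU, and without KM fish 2 1 was above FM in KM. No shares of all probes are given for these counts against FM and SBM, which only describe the members. The authors' table gave 1 member (ALDH2) and the lamina propria score 2 past the histology test.

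Fish numbers are shared between diets, but the labels do not say that they pair fish, and same-numbered fish had deviations correlated at 0.08 to 0.25 between SBM and FM (each of the 7 pairs shared a slide) and at −0.04 to 0.38 between CU and FM (9 of the 10 pairs shared a slide). With the number as a block, 24 members were called below FM in SC and 18 in SBM, again with no share of all probes given. Dim spots limit SOX most, with 6 imputed values.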

Other observations

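The following values were picked after the data were seen and carry no test. The mean of HAOX2, OXDA, CATA, MMSA and GABT relative to FM was taken per fish. It ran from −1.97 to −1.28 in SC and from −1.82 to −1.18 in SBM, against −0.18 to 0.24 in FM. The 2 SC fish with a histology sum of 1.5 had −1.45 and −1.40, within the range of the SC fish with sums of 6 to 8. Their enterocyte marker shifts were −1.06 and −1.08, within the SC range of −1.94 to −0.57 and below every FM fish. The 4 CU fish with a sum of 0 had 0.26, −0.61, −0.45 and −0.77, of which 3 lay below every FM fish. The enterocyte marker shifts of these 4 were 0.18, 0.09, −0.05 and −0.06, within the FM range of −0.38 to 0.53. CU fish 1, 2, 4, 6, 8 and 10, with sums above 0, had −0.93, −0.69, −1.04, −0.68, −0.74 and −0.04 for the 5 genes. Their enterocyte shifts were −0.33, −0.59, −0.75, −0.38, −0.31 and 0.40.

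KM fish 2, with a histology sum of 6, had 0.28 for these 5 genes, above every FM fish, while the other KM fish lay between −1.15 and −0.45. Its mean enterocyte marker shift was 0.99, against −0.78 to 0.26 in the other KM fish. KM fish 6, 7 and 10, with −0.45, −0.58 and −0.60 for the 5 genes, had enterocyte shifts of 0.09, 0.23 and 0.26. KM fish 1, 3, 4, 5, 8 and 9 had −0.72, −0.62, −1.15, −0.85, −0.71 and −0.83 for the 5 genes. Their enterocyte shifts were −0.50, −0.78, −0.43, −0.56, −0.46 and −0.78, below every FM fish. CV fish 7, with a sum of 7, had −1.21, and the other CV fish had −0.68 to 0.50. Its enterocyte marker shift was −0.70, the lowest of its diet, and the markers' part in these values was not tested.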
